A study of Mus musculus with 6 samples.

Results

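Amino acid transporters are described here across 3 mouse cell lines labelled as derived from melanocytes: every gene on the array whose symbol places it in the solute carrier (SLC) families SLC1, SLC3, SLC6, SLC7, SLC36, SLC38 or SLC43. The symbol rule used no measured value. It found 62 genes among the 19505 genes named on the array, each read by 1 probe set: 7 in SLC1, 2 in SLC3, 19 in SLC6, 16 in SLC7, 4 in SLC36, 11 in SLC38 and 3 in SLC43. One of them, Slc7a6os, is named for its place on the strand opposite Slc7a6 and is not a carrier. The other 61 of the 62 are called carriers here. They include the 2 heavy chains of SLC3, which carry no amino acids themselves. The SLC6 family also holds carriers of taurine, creatine, GABA and monoamines.

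Cells import amino acids through carriers that differ in substrate and in driving force. Sodium-coupled carriers of the SLC38 family load the cell with glutamine and small neutral amino acids. Exchangers such as Slc1a5 and Slc7a5 then trade internal for external amino acids, and Slc7a5, Slc7a6 and Slc7a11 reach the cell surface only when paired with the heavy chain Slc3a2. Several of these genes are known targets of the transcription factor Atf4, which is made when amino acids run short, and Slc38a9 on the lysosome reports arginine to the growth kinase complex mTORC1.

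By their labels the lines derive from melan-a, immortalized melanocytes of the C57BL/6J strain, and were grown untreated in RPMI with 10% serum. mVec carries a control vector (titled CD516B2) and is labelled as melanocytes. The other lines are mKitK641E(T), titled C3# and here shortened to T, and mKitK641E(PT), titled hi exp and here shortened to PT. Both received Kit, a receptor tyrosine kinase, bearing the change K641E, and their labels call them transformed melanoma. The sources used here do not say what T, PT or these titles stand for. Each group is 1 line measured on 2 Affymetrix Clariom S arrays. The titles number these as replicates without saying whether they were separate cultures, so errors and p-values rest on array-to-array spread within 1 line, which may be technical, and carry nothing on how independent lines vary.

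Values are deposited log2 expression values. A probe set counts as above background in a line when both arrays exceed the 95th percentile of their own negative controls, a limit that fell between 8.74 and 9.16. Between 29.0% and 32.6% of the 22206 gene probe sets exceeded it per array. Replicate arrays had a Pearson correlation across genes, which are not independent replicates, between 0.993 (T) and 0.995 (mVec). Kit itself was below the limit on every array and gives no check of the labels. The melanocyte markers went against the labelled cell type: of 10, the pigment genes Tyr, Tyrp1, Dct, Pmel and Mlana among them, 9 were below the limit on every array, and Mitf was above it on both arrays of T alone. None of the measured markers of keratinocytes (10 genes), leukocytes (8), mast cells (7) or neural crest and Schwann cells (7) was above background in any line. Fibroblast markers moved with the comparisons: of 11 measured, 5 were above background in mVec, 3 in T and 1 in PT, and the log2 of their summed signal was 17.09 and 17.25 in mVec, 12.55 and 12.72 in T, and 11.87 and 12.19 in PT. Of the list 6 genes were called lower than mVec in each line, among them the collagens Col1a1 and Col3a1 and the matrix genes Dcn and Fap, which had means of 15.13, 15.81, 13.99 and 13.65 in mVec. Another collagen gene, Col1a2, went the other way, at a mean of 9.23 for T and 9.22 for PT against 5.07 for mVec, and was called higher in both. Dpt, Pdpn, Thy1, Lum and Tcf21 of that list were below background on all 6 arrays. Of 7 endothelial markers, Cdh5 alone was above background, in mVec, and the summed signal was 10.86 and 10.67 there against 7.09 to 7.46 on the other arrays. Of 13 RNA quality and handling genes 8 were lower (61.5%) and 2 higher (15.4%) in each K641E line than in mVec. Over all gene probe sets, 15.5% were lower in T and 18.0% in PT. The median difference of the 13 RNA quality and handling genes was -1.20 in T (range -6.49 to 2.40) and -1.34 in PT (-7.14 to 2.28). The summed signals, which follow the brightest genes, were 18.59 and 18.61 in mVec, 18.45 and 18.47 in T, and 18.29 and 18.37 in PT. The part of these markers and handling genes in the differences from mVec below was not tested. In such bulk samples, fewer cells of a type and less RNA per cell cannot be told apart.

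The RefSeq promoter windows used here (250 bases before to 50 after a start, build GRCm38.p6) cover 45 of the 62 genes. The stretches below are shown because both genes were higher in the K641E lines than in mVec and hold the C/EBP-ATF response element, the site that Atf4 and its partners are known to bind. Capitals mark matches to the letters TGATGNAA on either strand, and each stretch reads 5′ to 3′ on the gene's own strand, which is the minus strand for both. The Slc7a11 stretch is chr3:50443628-50443709 and lies before the start, and the Slc1a4 stretch is chr11:20332702-20332725 and spans it.
Slc7a11: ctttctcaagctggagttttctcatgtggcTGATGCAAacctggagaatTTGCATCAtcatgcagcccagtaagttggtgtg
Slc1a4: ctcctgcgTTGCATCAtctccagc
Slc7a11 holds 2 matches facing each other and Slc1a4 holds 1. A match was found in 4 of the 45 genes with a window (8.89%), and in 4.51% of the 27025 genes in the table. Slc7a7 and Slc6a21 also hold a match, and both were below background on all 6 arrays and not called. The E-box CACGTG, a motif of Myc with Max, was found in 8 of 45 genes (17.8%) against 8.09% of all genes. The antioxidant response element TGACNNNGC was likewise found in 8 of 45 (17.8%) against 14.0% of all genes. Of the 12 members with a window that were above background on all 6 arrays, 2 held the C/EBP-ATF element, 1 the E-box and 4 the antioxidant element. A match describes letters and is not evidence of binding, and Slc7a5, Slc1a5, Slc38a1, Slc43a3, Slc6a6 and Slc6a8 have no window in the table.

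Of the 62 members, 18 were above background on all 6 arrays, 43 were below it on all 6, and Slc7a6os was above it in T and PT and below it in mVec. The 18 carriers were Slc1a4 and Slc1a5 of SLC1, the heavy chain Slc3a2, Slc6a6, Slc6a8, Slc6a9 and Slc6a17 of SLC6, Slc7a1, Slc7a5, Slc7a6 and Slc7a11 of SLC7, Slc38a1, Slc38a2, Slc38a6, Slc38a7, Slc38a9 and Slc38a10 of SLC38, and Slc43a3 of SLC43. No member of SLC36 was above the limit. The set depends on the limit: with the 99th percentile of the negative controls, 14 members were above it in T, 13 in PT and 6 in mVec.

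**Figure D1:**
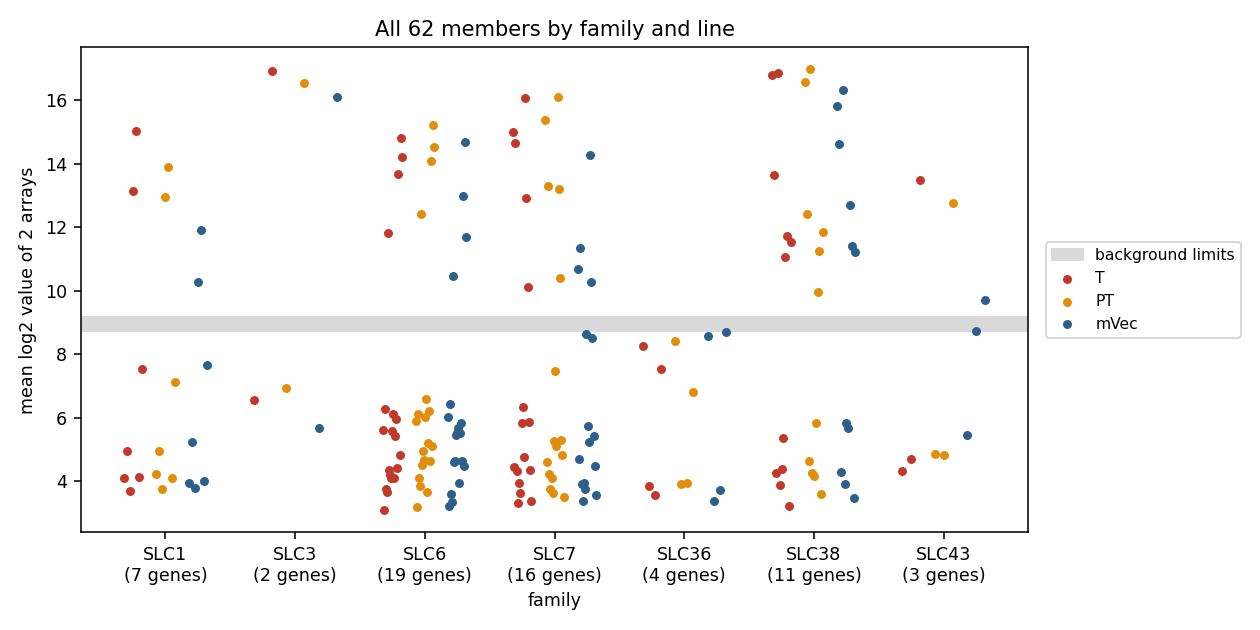
Mean log2 value of the 2 arrays of each line (T red, PT orange, mVec blue) for all 62 members, by family. The grey band spans the background limits of the 6 arrays, from 8.74 to 9.16, and 43 members lie below their limit on every array while none of the 4 SLC36 genes lies above it.

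The comparisons of T and of PT with mVec ask how cells with mutant Kit differ from cells with the vector, and they share the 2 mVec arrays. Differences are limma estimates with their standard error, and a member is called at a Benjamini-Hochberg adjusted p under 0.05 over all 22206 gene probe sets. In T, 13 of 62 members were called higher than mVec (21.0%) and 8 lower (12.9%). Over all gene probe sets, 16.9% were called higher and 15.5% lower, so the share of members called was near that of all genes. In PT, 15 members were called higher (24.2%) and 7 lower (11.3%), against 17.9% and 18.0% over all gene probe sets. Members below background in both lines compared made up 6 of the 8 lower calls in T. In PT they made up 5 of the 7 lower and 2 of the 15 higher calls. The median difference over the 62 was 0.05 in T and 0.29 in PT, beside 0.01 and 0.08 over all gene probe sets. Of the 18 carriers above background on all arrays, 12 were called higher and 2 lower in each line. The same shares over the 5516 gene probe sets above background on all arrays were 36.2% higher and 19.9% lower in T, and 37.3% higher and 24.3% lower in PT. Centring each array on its median raised the median of all genes by 0.18 in T and 0.19 in PT. With it the members split into 16 higher and 8 lower in T and 22 and 6 in PT, and the share of all calls that were higher moved from 52.3% to 62.3% in T and from 49.9% to 60.3% in PT.

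**Figure D2:**
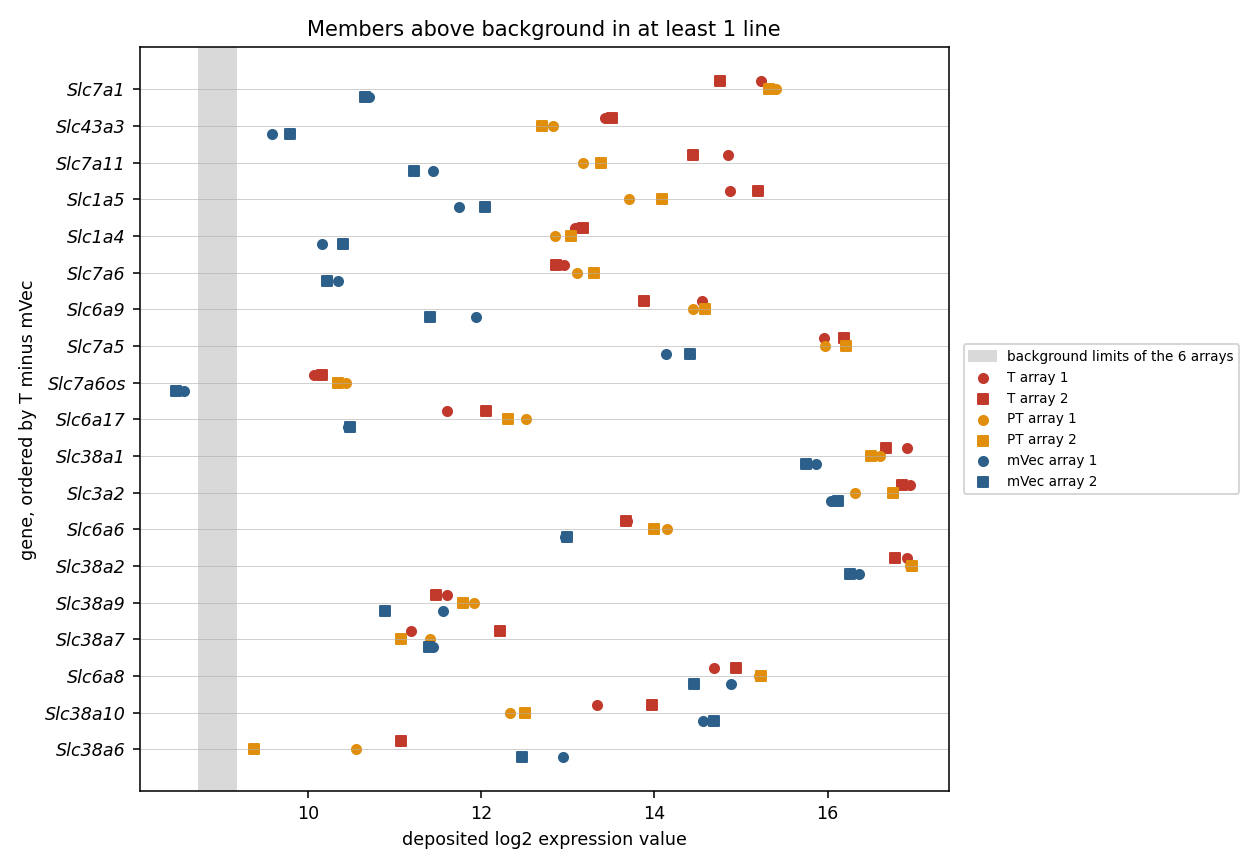
Deposited log2 values on each of the 6 arrays (colour for line, symbol for array number) for the 19 members above background in at least 1 line, ordered by their T minus mVec difference. Slc7a1, at the top, reads 14.76 to 15.40 in the K641E lines and 10.65 to 10.70 in mVec, and Slc38a6 and Slc38a10, at the bottom, are highest in mVec.

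Cationic amino acid carriers of SLC7 work without a heavy chain, and Slc7a1, the widely expressed importer of arginine and lysine, showed the largest rise of any member in both lines. Its log2 values were 10.70 and 10.65 in mVec, 15.23 and 14.76 in T, and 15.40 and 15.32 in PT. All K641E arrays lay more than 4 log2 units above both mVec arrays. Slc7a1 was 20.0-fold higher in T (4.32 ± 0.22, adjusted p = 5.92e-07) and 25.8-fold higher in PT (4.69 ± 0.22, adjusted p = 2.57e-07). The other cationic amino acid carriers of this group were below background on all 6 arrays. Slc7a2, its relative induced in macrophages, read 8.83 and 8.46 in mVec, just under the limit, 5.97 and 5.69 in T, and 5.26 and 5.25 in PT. It was called lower in both lines (-2.81 ± 0.22, adjusted p = 7.82e-06, and -3.39 ± 0.22, adjusted p = 1.66e-06). No fold is given for genes below background in both groups, where a difference is one of signals under the limit and not a measured change in level. Slc7a3 read 5.96 and 5.50 in mVec, 6.24 and 6.46 in T, and 7.46 and 7.49 in PT, and was called higher in PT (1.75 ± 0.23, adjusted p = 0.000166). In T its adjusted p was 0.0666, and it passed there under 3 of 14 alternatives, among them array centring (0.0248), with a range from 0.0226 to 0.401. Slc7a4 and Slc7a14 were below background and not called.

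The SLC7 members grouped as partners of a heavy chain, not all of them of Slc3a2, include the cystine importer Slc7a11 (xCT). It exports glutamate in exchange and feeds glutathione synthesis. Slc7a11 read 11.44 and 11.22 in mVec, 14.84 and 14.44 in T, and 13.18 and 13.39 in PT. The 3 lines formed separate levels, T above PT above mVec. It was 9.92-fold higher in T (3.31 ± 0.23, adjusted p = 3.15e-06) and 3.86-fold higher in PT (1.95 ± 0.23, adjusted p = 7.78e-05). Slc7a5 (LAT1), which brings in leucine and other large neutral amino acids in exchange for glutamine, read 14.14 and 14.41 in mVec, 15.96 and 16.19 in T, and 15.97 and 16.22 in PT. T and PT overlapped, both above mVec. It was 3.49-fold higher in T (1.80 ± 0.22, adjusted p = 0.000132) and 3.54-fold higher in PT (1.82 ± 0.22, adjusted p = 9.47e-05). Slc7a6 (y+LAT2), an exchanger of cationic for neutral amino acids, read 10.35 and 10.22 in mVec, 12.96 and 12.86 in T, and 13.10 and 13.31 in PT. It was 6.17-fold higher in T (2.63 ± 0.20, adjusted p = 6.87e-06) and 7.56-fold higher in PT (2.92 ± 0.20, adjusted p = 2.41e-06), with no overlap with mVec. The other 7 partners, Slc7a7, Slc7a8, Slc7a9, Slc7a10, Slc7a12, Slc7a13 and Slc7a15, were below background on every array and not called. Slc7a10 among them, a carrier of small neutral amino acids and D-serine, read between 4.40 and 4.71.

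Heavy chains carry no amino acids but bring their partners to the membrane. Slc3a2 (4F2hc, CD98) read 16.04 and 16.12 in mVec, 16.95 and 16.86 in T, and 16.32 and 16.76 in PT. All K641E arrays were above both mVec arrays, by less than 1 log2 unit. It was called in T, 1.77-fold higher (0.82 ± 0.22, adjusted p = 0.0169), and not in PT (0.46 ± 0.22, adjusted p = 0.149), while the direct difference of T from PT was 0.36 ± 0.22 (adjusted p = 0.384). Leaving out T replicate 1 (adjusted p = 0.0635), mVec replicate 1 (0.0982) or mVec replicate 2 (0.0687) ended the T call, with a range over 15 alternatives from 0.000229 to 0.0982. In PT it passed with array centring (0.0492) and with an intensity trend in the variance (0.0152), with a range from 0.0152 to 0.542. The other heavy chain, Slc3a1 (rBAT), which pairs with Slc7a9 in kidney, was below background on every array. It read 5.84 and 5.51 in mVec, 6.83 and 6.29 in T, and 6.53 and 7.35 in PT. It was called higher in PT (1.26 ± 0.31, adjusted p = 0.00882), a call that ended when PT replicate 2 (0.0784) or mVec replicate 2 (0.0660) was left out, with a range over 14 alternatives from 0.00266 to 0.0784. In T it was not called (0.89 ± 0.31, adjusted p = 0.0532) but passed under 8 of its 14 alternatives, with a range from 0.0238 to 0.247, and its difference between T and PT was -0.38 ± 0.31 (adjusted p = 0.530).

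The neutral amino acid exchangers of SLC1 were both higher in both lines. Slc1a5 (ASCT2), an importer of glutamine, read 11.74 and 12.04 in mVec, 14.88 and 15.19 in T, and 13.70 and 14.09 in PT. As for Slc7a11, the 3 lines did not overlap and T was highest. Slc1a5 was 8.83-fold higher in T (3.14 ± 0.24, adjusted p = 5.68e-06) and 4.01-fold higher in PT (SE of the log2 difference 0.24, adjusted p = 8.57e-05). Slc1a4 (ASCT1), which exchanges serine, alanine, cysteine and threonine, read 10.16 and 10.40 in mVec, 13.08 and 13.18 in T, and 12.85 and 13.03 in PT. It was 7.20-fold higher in T (2.85 ± 0.21, adjusted p = 4.65e-06) and 6.32-fold higher in PT (2.66 ± 0.21, adjusted p = 5.02e-06). The 5 glutamate and aspartate carriers of the family, Slc1a1, Slc1a2, Slc1a3, Slc1a6 and Slc1a7, were below background everywhere and none was called. Slc1a2 and Slc1a3, the glutamate carriers of astrocytes, read 4.72 to 5.32 and 3.38 to 4.05.

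**Figure D3:**
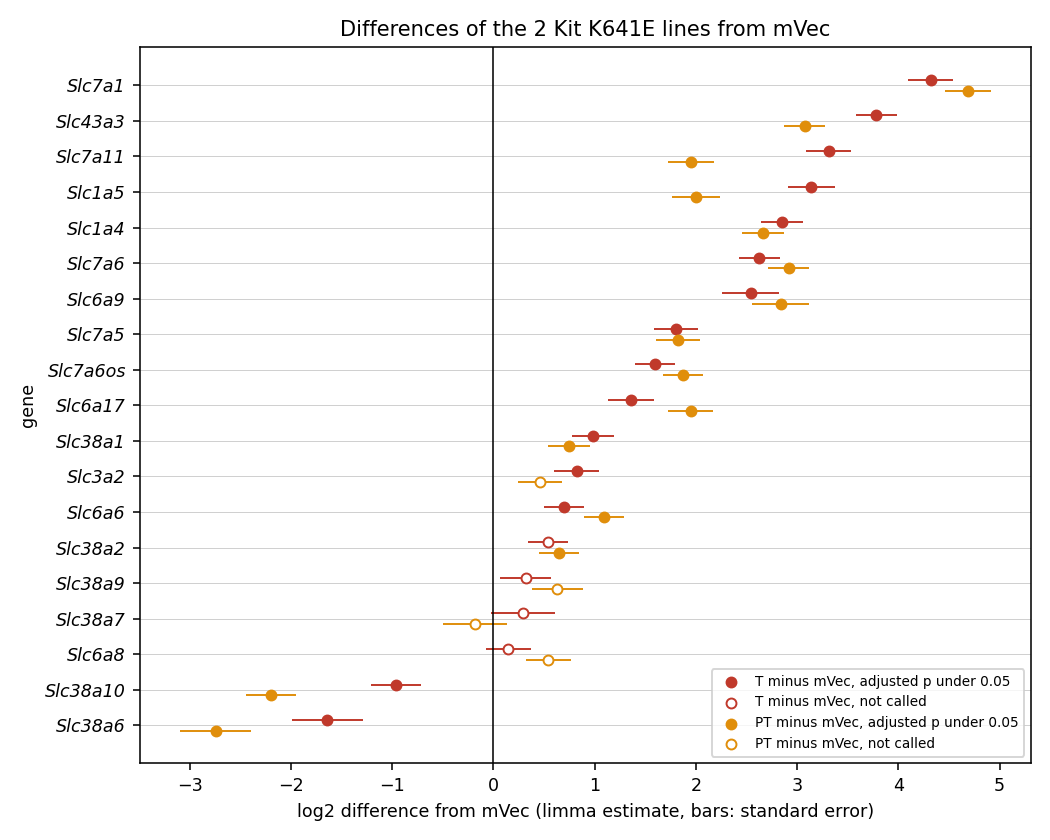
Log2 difference of T (red) and PT (orange) from mVec for the 19 members above background in at least 1 line, as limma estimates with standard errors; filled points are called at an adjusted p under 0.05 and open points are not. The estimates run from 4.69 for Slc7a1 in PT to -2.74 for Slc38a6 in PT.

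The sodium-coupled SLC38 carriers split by gene. Slc38a1 (SNAT1) and Slc38a2 (SNAT2), the glutamine and alanine importers of the cell surface, had values above mVec on every K641E array. Slc38a1 read 15.87 and 15.75 in mVec, 16.91 and 16.67 in T, and 16.61 and 16.50 in PT. It was 1.98-fold higher in T (0.98 ± 0.21, adjusted p = 0.0042) and 1.67-fold higher in PT (0.74 ± 0.21, adjusted p = 0.017). The PT call was lost without PT replicate 1 (0.0852), mVec replicate 1 (0.0630) or mVec replicate 2 (0.108), with a range over 15 alternatives from 0.000138 to 0.108. Slc38a2, whose transcript is known to rise when amino acids are short, read 16.36 and 16.26 in mVec, 16.92 and 16.78 in T, and 16.95 and 16.98 in PT. It was called in PT, 1.57-fold higher (0.65 ± 0.20, adjusted p = 0.0273), and not in T (0.54 ± 0.20, adjusted p = 0.0676), although no K641E array overlapped mVec. Between T and PT the difference was -0.11 ± 0.20 (adjusted p = 0.788). The PT call was lost without PT replicate 1 (0.0868), PT replicate 2 (0.0936), mVec replicate 1 (0.0931) or mVec replicate 2 (0.148), and its range was 0.000165 to 0.148. In T it passed under 4 of 15 alternatives, including array centring (0.0204), with a range from 0.001 to 0.267.

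Slc38a10 and Slc38a6 went the other way. Slc38a10 read 14.56 and 14.69 in mVec, 13.34 and 13.97 in T, and 12.33 and 12.51 in PT. It was 4.60-fold lower in PT (-2.20 ± 0.25, adjusted p = 6.25e-05) and 1.95-fold lower in T (-0.97 ± 0.25, adjusted p = 0.0131), and leaving out T replicate 1 (0.0768) or mVec replicate 2 (0.0813) ended the T call, with a range over 15 alternatives from 0.0012 to 0.0813. Slc38a6 read 12.94 and 12.47 in mVec, 11.06 and 11.07 in T, and 10.55 and 9.37 in PT. The PT arrays were more than 1 log2 unit apart, and all K641E arrays were below mVec. It was 3.12-fold lower in T (-1.64 ± 0.35, adjusted p = 0.00501) and 6.70-fold lower in PT (-2.74 ± 0.35, adjusted p = 0.000156).

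The lysosomal SLC38 carriers were not called in either line. Slc38a9, the arginine sensor upstream of mTORC1, read 11.56 and 10.88 in mVec, 11.60 and 11.48 in T, and 11.92 and 11.79 in PT. Its differences were 0.32 ± 0.25 in T (adjusted p = 0.412) and 0.63 ± 0.25 in PT (adjusted p = 0.0843), and the PT value passed under 5 of 15 alternatives, including array centring (0.0290), with a range from 0.0257 to 0.526. Slc38a7, which exports glutamine and asparagine from the lysosome, read 11.44 and 11.39 in mVec, 11.19 and 12.22 in T, and 11.40 and 11.07 in PT. The lines overlapped (0.29 ± 0.32, adjusted p = 0.574, in T and -0.18 ± 0.32, adjusted p = 0.734, in PT), and the T value passed only without T replicate 1 (0.80, adjusted p = 0.0447; range over 15 alternatives 0.0447 to 0.818). Slc38a3, Slc38a5, Slc38a8 and Slc38a11 were below background and not called. Slc38a4, also below background, was called lower in both lines, with means of 4.38 ± 0.20 in T, 4.18 ± 0.09 in PT and 5.84 ± 0.32 in mVec (SD, n = 2 arrays).

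Of the 3 facilitated carriers of SLC43, only Slc43a3 was above background. Slc43a3, known as a carrier of purine bases and not of amino acids, read 9.58 and 9.79 in mVec, 13.43 and 13.51 in T, and 12.82 and 12.70 in PT. It was 13.8-fold higher in T (3.78 ± 0.20, adjusted p = 7.47e-07) and 8.43-fold higher in PT (3.08 ± 0.20, adjusted p = 1.75e-06), a rise exceeded among the members only by that of Slc7a1. Slc43a2 (LAT4), which lets leucine and other branched-chain amino acids pass down their gradient, read 8.72 and 8.73 in mVec, just under the limits, 4.76 and 4.62 in T, and 4.96 and 4.70 in PT. It was below background on all 6 arrays, and its signal was called lower in both lines (-4.04 ± 0.21, adjusted p = 5.53e-07, and -3.90 ± 0.21, adjusted p = 4.52e-07). Slc43a1 (LAT3) was below background, at 5.41 and 5.52 in mVec, 4.34 and 4.29 in T, and 4.59 and 5.09 in PT, and was called lower in T (-1.15 ± 0.23, adjusted p = 0.00296) and not in PT (-0.63 ± 0.23, adjusted p = 0.0579). Between T and PT the difference was -0.53 ± 0.23 (adjusted p = 0.209). In PT it passed without PT replicate 2 (0.0294), with a range over 13 alternatives from 0.0294 to 0.330.

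Of the 4 proton-coupled SLC36 carriers, which move small neutral amino acids out of lysosomes and across the gut wall, Slc36a4 was called lower in both lines. It read 8.83 and 8.58 in mVec, 7.63 and 7.46 in T, and 6.74 and 6.85 in PT (-1.16 ± 0.21, adjusted p = 0.00167, and -1.91 ± 0.21, adjusted p = 5.01e-05). Slc36a1 read 8.08 to 8.75 over the 6 arrays and was not called. The 4 members nearest below the limit were Slc43a2, Slc36a4, Slc7a2 and Slc36a1, each within 0.31 log2 units of it on its best array. With the 90th percentile as the limit, these 4 and Slc7a6os joined the 18 in mVec, and only Slc36a1 and Slc7a6os did in T and PT.

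In SLC6, Slc6a9 (GlyT1), a glycine importer, read 11.94 and 11.41 in mVec, 14.55 and 13.88 in T, and 14.44 and 14.58 in PT. It was 5.82-fold higher in T (2.54 ± 0.28, adjusted p = 6.83e-05) and 7.15-fold higher in PT (2.84 ± 0.28, adjusted p = 2.37e-05), with T and PT overlapping each other and not mVec. Slc6a17 (NTT4), known as a carrier of neutral amino acids into synaptic vesicles, read 10.46 and 10.48 in mVec, 11.60 and 12.06 in T, and 12.52 and 12.31 in PT. It was 2.57-fold higher in T (1.36 ± 0.23, adjusted p = 0.00103) and 3.86-fold higher in PT (1.95 ± 0.23, adjusted p = 7.72e-05). The taurine importer Slc6a6 read 12.97 and 12.99 in mVec, 13.68 and 13.67 in T, and 14.15 and 13.99 in PT. It was 2.13-fold higher in PT (1.09 ± 0.20, adjusted p = 0.0015) and 1.62-fold higher in T (0.69 ± 0.20, adjusted p = 0.022). The T call was lost without T replicate 1 (0.0593), T replicate 2 (0.0634), mVec replicate 1 (0.115) or mVec replicate 2 (0.0992), with a range over 15 alternatives from 0.00198 to 0.115. The creatine importer Slc6a8 read 14.89 and 14.46 in mVec, 14.69 and 14.95 in T, and 15.20 and 15.23 in PT, and was not called (0.15 ± 0.23, adjusted p = 0.701, in T and 0.54 ± 0.23, adjusted p = 0.0952, in PT). The PT value passed under 4 of 15 alternatives, including array centring (0.0324), with a range from 0.0138 to 0.473. The remaining 15 SLC6 members were below background on all arrays. Among them only Slc6a2, the noradrenaline carrier, was called, lower in T (-1.33 ± 0.23, adjusted p = 0.00139) and in PT (-0.77 ± 0.23, adjusted p = 0.0265). The PT call was lost with array centring (0.0756) and without PT replicate 1 (0.137), PT replicate 2 (0.0587) or mVec replicate 2 (0.226), with a range over 13 alternatives from 0.021 to 0.226.

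Slc7a6os, whose product is not a carrier, read 8.56 and 8.47 in mVec, where it was below background, 10.07 and 10.15 in T, and 10.44 and 10.35 in PT. Set against the mVec limit, T was at least 2.16-fold and PT at least 2.63-fold higher (1.59 ± 0.20, adjusted p = 0.000154, and 1.87 ± 0.20, adjusted p = 3.88e-05). Without it, 12 of 61 carriers were called higher in T and 14 in PT.

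The comparison of T with PT asks how the 2 lines with mutant Kit differ. Of the 62 members, 3 were called higher in T (4.84%) and 1 lower (1.61%), against 5.67% and 2.70% over all gene probe sets, so the share was near that of all genes. Over gene probe sets above background on all arrays, 8.32% were higher and 4.48% lower. Slc7a11 was 2.57-fold higher in T than in PT (1.36 ± 0.23, adjusted p = 0.00745), Slc1a5 2.20-fold (1.14 ± 0.24, adjusted p = 0.019) and Slc38a10 2.35-fold (1.24 ± 0.25, adjusted p = 0.0166). For Slc7a11 and Slc1a5, PT lay between mVec and T, whereas for Slc38a10 T lay between mVec and PT. Slc7a3, below background in both, was lower in T (-1.13 ± 0.23, adjusted p = 0.0166). All 4 calls were lost without PT replicate 1, with adjusted p-values of 0.0666 for Slc7a11, 0.141 for Slc1a5, 0.118 for Slc38a10 and 0.0944 for Slc7a3. Without T replicate 2 those of Slc1a5 (0.115), Slc38a10 (0.0940) and Slc7a3 (0.0581) were lost, without PT replicate 2 those of Slc38a10 (0.0661) and Slc7a3 (0.0822), and without T replicate 1 that of Slc7a3 (0.0613). Over the alternatives the adjusted p ran from 0.00041 to 0.0666 for Slc7a11, from 0.00135 to 0.141 for Slc1a5, from 0.00118 to 0.118 for Slc38a10 and from 0.00713 to 0.0944 for Slc7a3. The other 58 members were not called, with differences from -0.77 to 1.10. Slc7a1, Slc7a5, Slc7a6, Slc1a4 and Slc6a9, far above mVec in both lines, differed between T and PT by -0.37 ± 0.22, -0.02 ± 0.22, -0.29 ± 0.20, 0.19 ± 0.21 and -0.30 ± 0.28.

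**Figure D4:**
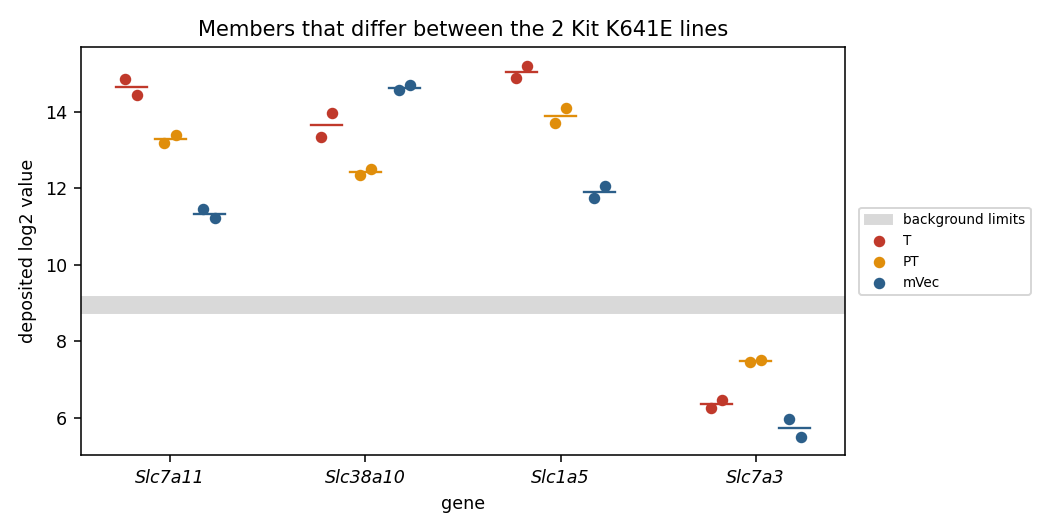
Deposited log2 values on each array (points) and line means (bars) for the 4 members called between T and PT, ordered by T minus PT. T is highest for Slc7a11 and Slc1a5, mVec is highest for Slc38a10, and Slc7a3 lies below the grey band of background limits in every line.

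Other genes of amino acid handling were read as 6 lists, given by counts of calls in the same fits. The lists were drawn up with earlier results of these data known, so the counts are descriptions and not independent tests. Over all gene probe sets, 16.9% were called higher and 15.5% lower in T, and 17.9% and 18.0% in PT. Over those above background on all arrays, the shares were 36.2% and 19.9% in T, and 37.3% and 24.3% in PT. The ATF4 and integrated stress response list holds the transcription factors and biosynthetic enzymes switched on by amino acid shortage. All 29 measured genes were called higher in T, with a median difference of 2.52. In PT 27 of 29 were higher (93.1%) and 0 lower, with a median of 2.23. Of the 29 genes, 22 were above background on all 6 arrays and 1 was below it on all 6. The cystathionine cleaving enzyme Cth was 25.6-fold higher in T (4.68 ± 0.21) and 20.4-fold in PT (4.35 ± 0.21), and the alanine aminotransferase Gpt2 22.8-fold in T (4.51 ± 0.22) and 20.4-fold in PT (4.35 ± 0.22). The secreted stanniocalcin Stc2 was below background in mVec and at least 35.0-fold higher in T and at least 27.1-fold higher in PT. The stress transcription factor Atf3 was higher by at least 9.78-fold in T and 9.33-fold in PT. Phgdh, the first enzyme of serine synthesis, was below background in mVec and PT, had a mean of 9.42 ± 0.59 (SD, n = 2 arrays) in T, and was at least 1.33-fold higher there (adjusted p = 1.42e-06).

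Of 17 enzymes of glutamine, glutamate, aspartate, arginine and branched-chain amino acids, 8 were higher (47.1%) and 3 lower (17.6%) in T. In PT 7 were higher (41.2%) and 3 lower (17.6%). The branched-chain aminotransferase Bcat1 was at least 47.4-fold higher in T and at least 52.9-fold higher in PT. Got1, the cytosolic aspartate aminotransferase, was 42.9-fold higher in T (5.42 ± 0.21) and 36.3-fold in PT (5.18 ± 0.21). Dbt, a subunit of the branched-chain ketoacid dehydrogenase, was 5.88-fold and 7.25-fold higher, and the ornithine aminotransferase Oat was 8.09-fold lower in T (-3.02 ± 0.25) and 9.06-fold lower in PT (-3.18 ± 0.25).

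Of 34 measured genes of amino acid sensing by mTORC1, 14 were higher (41.2%) and 5 lower (14.7%) in T, with a median of 0.26. In PT 11 were higher (32.4%) and 5 lower (14.7%), with a median of 0.25. The sestrins Sesn3 and Sesn1 were lower. Sesn2, a leucine-sensing sestrin counted in the ATF4 list, was higher by at least 1.59-fold in T and 1.13-fold in PT. In PT Sesn2 was above background on only 1 array. Sesn3 fell by 4.17 on the log2 scale in T, 18.0-fold, and was at least 25.4-fold below mVec in PT, and Sesn1 at least 4.32-fold and at least 3.81-fold lower. Rragd, one of the Rag GTPases that recruit mTORC1 to the lysosome, was at least 2.94-fold higher in T and at least 3.11-fold higher in PT. Rragb was higher by at least 2.04-fold in T and 1.07-fold in PT, where it was above background on only 1 array. Itfg2, a subunit of a lysosomal scaffold, was 2.91-fold higher in PT and not called in T (0.17 ± 0.28, adjusted p = 0.717).

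Of 14 genes of cystine use and NRF2 targets, 5 were higher (35.7%) and 4 lower (28.6%) in T, and 6 (42.9%) and 5 (35.7%) in PT. Of the genes of glutathione synthesis, Gss was at least 3.43-fold higher in T and at least 3.95-fold higher in PT. Gclc was 4.34-fold higher in T and 4.04-fold higher in PT. Gclm was not called in T (0.23 ± 0.21, adjusted p = 0.484) or in PT (0.03 ± 0.21, adjusted p = 0.943). Hmox1, the haem-cleaving enzyme, was 4.33-fold higher in T and 1.86-fold in PT. The NRF2 target Nqo1 was lower by at least 2.98-fold in T and 2.63-fold in PT, and Srxn1 by at least 1.71-fold in PT, while in T it was not called (-1.02 ± 0.36, adjusted p = 0.0564).

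Among 25 amino acid carriers of other families, 5 were higher (20%) and 4 lower (16%) in T, and 6 (24%) and 5 (20%) in PT. These shares were near those of all gene probe sets, which were 16.9% and 15.5% in T, and 17.9% and 18.0% in PT. The mitochondrial branched-chain carrier Slc25a44 was 6.28-fold higher in T and 5.68-fold in PT, and the lysosomal histidine and peptide carrier Slc15a4 4.14-fold higher in T and 2.32-fold in PT. The aspartate-glutamate carrier Slc25a13 was at least 1.95-fold higher in PT and not called in T (0.69 ± 0.32, adjusted p = 0.146). The other aspartate-glutamate carrier, Slc25a12, went the other way. With a mean of 15.03 in mVec, it was 2.05-fold lower in T and 3.03-fold lower in PT. Sfxn3, of the mitochondrial serine carriers, was 2.83-fold lower in T and 3.56-fold lower in PT. Sfxn1, another of them, was 1.74-fold higher in T and 2.62-fold higher in PT. The lysosomal cystine exporter Ctns was 1.91-fold lower in T and 4.19-fold lower in PT. Slc66a1, which exports cationic amino acids from lysosomes, was lower by at least 1.42-fold in T and 1.25-fold in PT. Of 11 regulators of these carriers, 2 were higher (18.2%) and 5 lower (45.5%) in each line. Myc was 4.35-fold higher in T (2.12 ± 0.21) and 5.52-fold in PT (2.46 ± 0.21), and the ubiquitin ligase Nedd4l 2.93-fold and 3.93-fold. The related ligase Nedd4 was 2.19-fold lower in T and 1.94-fold lower in PT. The arrestin Arrdc3 was lower by at least 3.91-fold in T and 3.45-fold in PT, Rnf5, a ubiquitin ligase, 2.91-fold lower in T and 2.70-fold in PT, and Txnip, a repressor of glucose uptake, 2.14-fold and 3.31-fold lower.

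**Figure D5:**
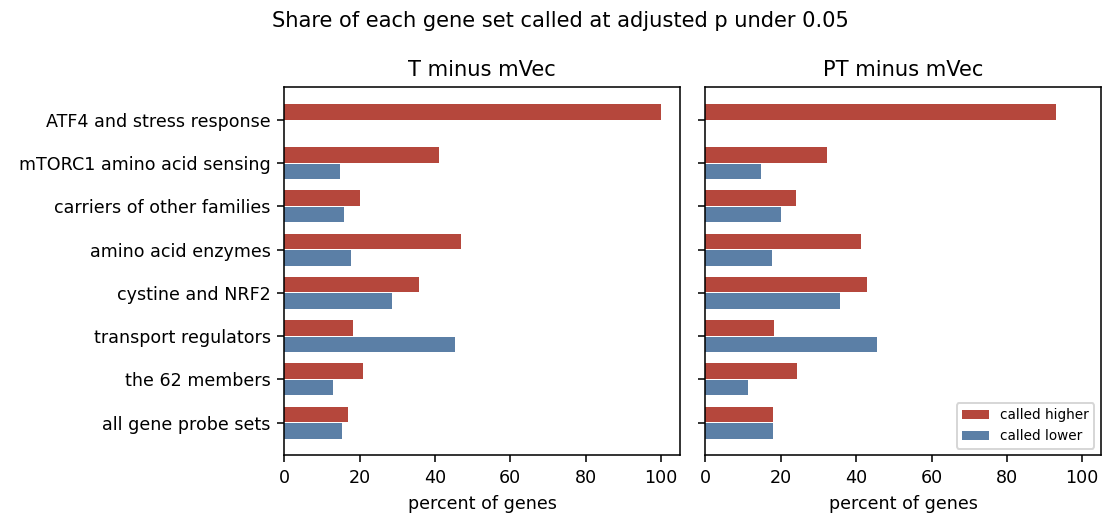
Percent of the genes of each list called higher (red) or lower (blue) than mVec at an adjusted p under 0.05, in T (left) and PT (right), with the 62 members and all gene probe sets for comparison. In the ATF4 and stress response list 100% of genes were called higher in T and 93.1% in PT, against 16.9% and 17.9% of all gene probe sets. Among gene probe sets above background on all arrays, which are not drawn, the shares called higher were 36.2% and 37.3%.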

How the data were processed

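Total RNA was labelled with biotin and read on Clariom S arrays, per the labels. The authors deposited 1 normalized log2 value per probe set and array. Their software, background correction and summary method: not given in the sources used here. Of 28846 rows, 6640 control rows were left out of the tests, and 5222 negative controls set the background limits. Of the 22206 gene probe sets, 19572 carry 1 symbol in the platform's table and 2634 none.

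All 6 arrays entered 1 limma fit (R 4.3.3, limma 3.58.1, statmod 1.5.0) with a mean per line, 3 residual degrees of freedom, a prior of 6.36 and no filter; p-values are two-sided. "At least" folds set the brighter line against the other line's mean limit. Arrays have no depth in counts; their number limits the precision. Equal replicate numbers did not move together (r = 0.082, 0.043 and 0.040), so no pairs were used. The members and lists were chosen with earlier results of these data known. By the rule for named genes, values are given for members above background in at least 1 line and for Slc1a2, Slc1a3 and Slc7a10, and each list is described by up to 4 called genes with the largest difference per line among those above background in 1 of the groups compared, with the other line's value beside it. Outside that rule, the members below background that were called, Slc36a1, Sesn2, Slc25a12, Sfxn1, Nedd4 and Gclm are given with values. They were chosen after their values were seen. Of 219 listed genes, 202 were measured.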

Additional observations from a re-analysis of the deposited data

Results flagged for a closer look

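Each K641E line was compared with the same mVec arrays, and for 4 members those effects differed between the lines by the limma test of T minus PT. These were Slc7a11 (log2 difference 1.36), Slc1a5 (1.14), Slc38a10 (1.24) and Slc7a3 (-1.13), the last below background in every line. Groups of 2 arrays are too small for a test of single arrays standing apart.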

How the results depend on the processing

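Of 58 differences of named members, 783 of 847 alternatives kept the direction and the side of the threshold. Sign changes were seen only for values that were not called: Slc38a7 in PT with array centring (0.0080), and in T minus mVec, over the fits that left out 1 array, Slc38a7 (-0.23 without T replicate 2 to 0.80), Slc6a8 (-0.066 without mVec replicate 2 to 0.36) and Slc38a9 (-0.020 without mVec replicate 2 to 0.66). Over the fits that left out 1 array, members called numbered 18 to 22 in T minus mVec (11 to 14 higher, 7 to 8 lower), 18 to 22 in PT minus mVec (12 to 15 higher, 6 to 7 lower) and 1 to 4 in T minus PT (1 to 3 higher, 0 to 1 lower). What was called in T minus PT without PT replicate 1 was not among the 4 members called there with all arrays. Among probe sets above background in at least 1 line, where fewer genes are tested, 2 members were lower than mVec in T and 2 in PT. Between T and PT 5 were higher and 0 lower with that filter. Above the median mean, 5 were lower in T than in mVec and 5 higher in T than in PT, and with an intensity trend 5 were higher in T than in PT. Asking also for at least a 2-fold difference left 17, 19 and 4 members called. The 99th percentile limit left 6 members above background in mVec. Over all gene probe sets, T minus PT gave 1258 higher calls, and 454, 370 and 625 without T replicate 2, PT replicate 1 and PT replicate 2. It gave 599 lower calls, and 205, 179 and 176 without those arrays and 950 with an intensity trend. The replicate block changed no call of a member: with it 21 members were called in T and 22 in PT against mVec, and 4 between T and PT, as without it. Each member has 1 probe set, so averaging probe sets left its values as they were. Among the list counts, 484 of 540 alternatives stayed within 1.5 times. The number of arrays, 2 per line, limits every value, and near the limits the signal over background limits which members count as measured.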
